A study of Mus musculus with 4 samples.

Results

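Histone-modifying enzymes add or remove small chemical groups on the tails of histones, the proteins around which DNA is wound. The genes described here were all genes whose name on the array matched the families Kdm, Hdac, Sirt, Setd, Suv, Prmt, Ezh, Kat, Mll, Ehmt or Prdm, or was Eed, Suz12, Dot1l, Nsd1, Crebbp or Ep300. Only the name decided which genes were members, but the families were chosen with earlier results of these data known. There were 91 such genes with 144 probes, of 34821 gene or transcript names with 55681 probes on the array. They comprise 42 writers, 35 erasers and 14 genes of the PRDM family. A gene was tested where 1 or more of its probes stood well above background on each array of 1 group or the other, and 80 genes passed: 41 writers, 33 erasers and 6 PRDM genes.

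The arrays compared NIH3T3 cells (mouse embryonic fibroblasts grown as an immortal line) that expressed a deletion mutant of EGFR with NIH3T3 cells that expressed wild-type EGFR, the receptor tyrosine kinase for epidermal growth factor. Each group had 2 arrays (n = 2), the cells were at steady state with no treatment, and the labels do not give the extent of the deletion, the species of the receptor or how many clones were used. The labels speak of separate cDNA preparations and not of separate cultures, so the p-values cover only how far these arrays differ, and that spread may be technical. A single slide held all 4 arrays, the deletion-mutant ones in column 3 and the wild-type arrays in column 2, so that group and slide column cannot be told apart.

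Writers of methyl groups transfer them to lysine or arginine, and writers of acetyl groups transfer them to lysine. Acetylation and methylation of lysine 4 of histone H3 (H3K4) mark active genes, while methylation of H3K9 and H3K27 marks silent ones. Erasers take the groups off again: KDM enzymes remove methyl groups, and HDAC and SIRT enzymes remove acetyl and related acyl groups. In fibroblasts these enzymes are best known for holding lineage genes silent, for the silencing of cell-cycle genes in senescence and for compacting chromatin through division.

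Levels are given as log2 of the signal over the 75th percentile of the same array, so that 1 unit is a 2-fold difference, and a fold change is deletion-mutant over wild-type. From 42.9% to 46.9% of probes stood well above background per array. Saturated spots numbered 0, and the 75th percentile lay between 327 and 366.5 intensity units. All 12 markers of fibroblasts were well above background on the 4 arrays, of which 8 were lower and 2 higher in deletion-mutant cells, with a median log2 fold change of -0.75. Of 6 epithelial markers 1 was measurable, Krt8 at -2.01 and -2.09 on the deletion-mutant arrays and at background on the wild-type arrays. Of 6 leukocyte markers 3 were measurable, none of them Ptprc. Itgam had 4.18 and 4.18 on the deletion-mutant arrays, against 5.05 and 5.15 on the wild-type arrays (1.89-fold lower), and Cd3e and Cd68 did not pass the threshold. Of 4 endothelial markers 2 were measurable, Pecam1 (1.32-fold lower) and Kdr, which did not pass, and of 4 muscle markers 0. The part of these markers in the results on the enzymes was not tested, and fewer cells with a transcript and less transcript per cell cannot be told apart in bulk RNA.

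The share of changed enzymes was close to that of the array as a whole. Of the 80 tested genes 46 (57.5%) passed an adjusted p of 0.05 in limma, against 58.8% of all 18093 features, which are gene names or unnamed transcripts. With either wild-type array left out, fewer enzymes and fewer features of the whole array were called, and the enzymes' share lay below the array's. With the arrays scaled as above, the direction differed between the classes. In deletion-mutant cells, against wild-type cells, 17 of 41 writers were higher and 12 lower (41.5% and 29.3%), while of 33 erasers 4 were higher and 12 lower (12.1% and 36.4%). Of all features 34.6% were higher and 24.2% lower. The median log2 fold change was 0.17 for the writers and -0.089 for the erasers, against 0.066 for all features, and it was the same for both classes with genes at background in 1 group set at their bound. No test of the difference between the classes was made.

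The split between higher and lower depends on how the arrays are scaled. Under median scaling 23 writers were higher and 7 lower, and 9 erasers were higher and 7 lower. With the 75th percentile taken over detected probes (detected-probe scaling) the numbers were 12 and 16 for writers and 1 and 19 for erasers, and quantile normalization gave 13 and 16 for writers and 2 and 16 for erasers. E1A spike-in scaling gave 20 and 11 for writers and 6 and 9 for erasers. Higher genes thus outnumbered lower ones in both classes under median scaling. Lower genes outnumbered higher ones in both under detected-probe scaling and quantile normalization. The opposite directions of the classes therefore hold for some scalings only. Scaling by a median, a percentile or the spike-ins moves every gene by the same amount, so the writers' median lay 0.26 above the erasers' under each of them. It lay 0.18 above under quantile normalization.

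**Figure D1:**
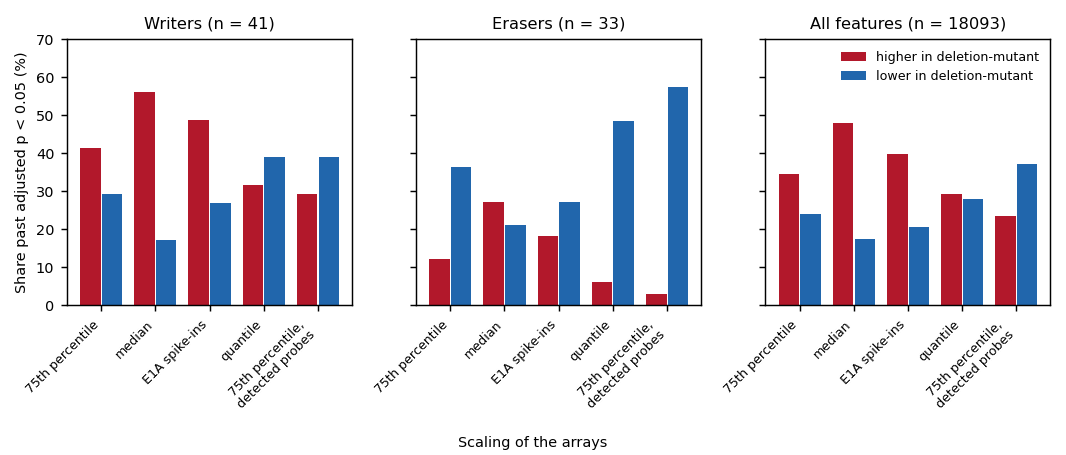
Percentage of writers (n = 41), erasers (n = 33) and all features (n = 18093) past an adjusted p of 0.05 in limma, higher (red) or lower (blue) in deletion-mutant than in wild-type cells, under 5 scalings of the arrays. With 75th percentile scaling 41.5% of writers and 12.1% of erasers were higher, and the shares of all 3 panels shift together with the scaling.

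Changes of 2-fold or more were few. The median absolute log2 fold change was 0.33 for the enzymes, close to 0.37 for all features, with 0.43 for writers and 0.21 for erasers. Across the tested enzymes the log2 fold changes had an SD of 0.53, against 0.83 for all features, while the difference between the arrays of a group had an SD of 0.19 for the deletion-mutant arrays and 0.12 for the wild-type arrays over the same enzymes. Setd8 and Ezh2 were at least 2-fold higher (2 of 80, where 5.94% of all features were). By the fitted fold Kat6b, Ezh1 and Hdac9 were at least 2-fold lower (3 of 80, against 7.46%). The enzymes had a median level at percentile 65.6 of all features. The arrays of the groups did not overlap for 68 of the 80, against 81.7% of all features.

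**Figure D2:**
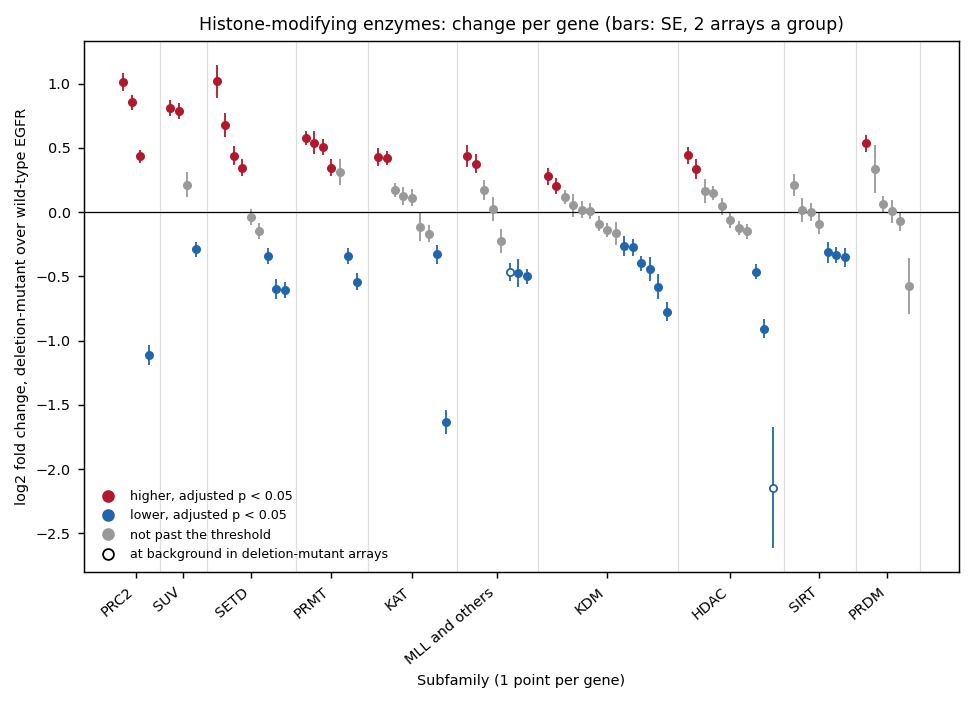
Log2 fold change (deletion-mutant over wild-type EGFR) of each of the 80 tested genes by subfamily, with the standard error from limma as bars. Red and blue points passed an adjusted p of 0.05, and open points are the genes at background on both deletion-mutant arrays, Hdac9 and Mll1, whose fitted fold is not a measured one.

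Polycomb repressive complex 2 (PRC2) writes the repressive methyl marks of H3K27. It holds either Ezh2 or Ezh1 as its catalytic subunit, together with Suz12, which holds the core together, and Eed, which binds the finished mark and stimulates the enzyme. Ezh2 had a level of 2.90 and 2.88 on the deletion-mutant arrays, against 1.81 and 1.94 on the wild-type arrays. Both deletion-mutant arrays lay above both wild-type arrays, and Ezh2 rose 2.02-fold (log2 fold change 1.01 ± 0.071 SE, limma adjusted p = 0.00108). Suz12 had 2.85 and 2.85 in deletion-mutant cells, against 1.96 and 2.03 in wild-type cells, and rose 1.81-fold (0.85 ± 0.059, adjusted p = 0.00105). Eed had 4.24 and 4.23 in deletion-mutant cells, against 3.81 and 3.80 in wild-type cells, a rise of 1.35-fold (0.43 ± 0.054, adjusted p = 0.00397). The histone-binding subunits Rbbp4 (0.23 ± 0.065, log2, adjusted p = 0.0386) and Rbbp7 (0.26 ± 0.078, adjusted p = 0.0473), which PRC2 shares with other complexes, were higher by less.

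Ezh1, the catalytic subunit that prevails in resting and differentiated cells, went the other way. It had 2.24 and 2.40 on the deletion-mutant arrays, against 3.40 and 3.46 on the wild-type arrays, with no overlap, and was 2.16-fold lower (-1.11 ± 0.078, adjusted p = 0.00108). Its next brightest probe, at chromosome 11, 101052680 to 101052739 (mm9), was lower as well (-0.93 on the log2 scale), and the other pair of its 4 probes did not pass the filter on background. These 4 calls, 3 higher and 1 lower, held under each of the 16 alternatives. The H3K27 demethylases Kdm6a and Kdm6b did not pass the threshold, at -0.16 and -0.14 (log2). Phf19, a protein that brings PRC2 to its sites, rose 2.30-fold (log2 fold change 1.20 ± 0.187), and its relative Mtf2 rose 1.52-fold (0.60 ± 0.069), while Phf1, the other relative, was 1.44-fold lower (-0.53 ± 0.062). Of the accessory subunits Jarid2 was 1.21-fold lower (-0.28 ± 0.060) and Aebp2 did not pass (-0.06).

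The promoters of the PRC2 genes are shown because 3 of these genes rose together while the fourth fell. Each runs from 250 bases before to 50 bases after the gene's listed start site, in the direction of transcription, from RefSeq on GRCm38.p6. The spans are chr6:47594981-47595280 (minus strand) for Ezh2, chr11:79992856-79993155 (plus) for Suz12, chr7:89980927-89981226 (minus) for Eed and chr11:101226414-101226713 (minus) for Ezh1. Capitals mark the words TTTCCCGC, TTTGGCGC and TTTCGCGC on either strand, which resemble the site of E2F factors.
Ezh2: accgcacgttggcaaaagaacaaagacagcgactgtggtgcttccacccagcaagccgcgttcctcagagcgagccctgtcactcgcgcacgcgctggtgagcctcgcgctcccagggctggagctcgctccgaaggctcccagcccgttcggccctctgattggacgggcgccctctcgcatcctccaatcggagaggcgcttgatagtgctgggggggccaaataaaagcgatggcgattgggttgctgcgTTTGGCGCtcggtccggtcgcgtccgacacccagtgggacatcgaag
Suz12: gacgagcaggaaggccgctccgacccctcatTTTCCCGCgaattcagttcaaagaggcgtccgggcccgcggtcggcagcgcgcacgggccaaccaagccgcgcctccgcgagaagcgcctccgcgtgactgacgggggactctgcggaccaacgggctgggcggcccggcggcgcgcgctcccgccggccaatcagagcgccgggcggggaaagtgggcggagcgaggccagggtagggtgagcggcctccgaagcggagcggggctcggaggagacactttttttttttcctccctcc
Eed: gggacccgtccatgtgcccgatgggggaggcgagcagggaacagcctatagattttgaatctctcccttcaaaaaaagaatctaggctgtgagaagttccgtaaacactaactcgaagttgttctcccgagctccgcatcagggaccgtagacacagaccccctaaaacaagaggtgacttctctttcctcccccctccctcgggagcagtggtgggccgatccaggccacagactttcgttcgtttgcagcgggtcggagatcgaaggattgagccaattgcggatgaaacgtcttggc
Ezh1: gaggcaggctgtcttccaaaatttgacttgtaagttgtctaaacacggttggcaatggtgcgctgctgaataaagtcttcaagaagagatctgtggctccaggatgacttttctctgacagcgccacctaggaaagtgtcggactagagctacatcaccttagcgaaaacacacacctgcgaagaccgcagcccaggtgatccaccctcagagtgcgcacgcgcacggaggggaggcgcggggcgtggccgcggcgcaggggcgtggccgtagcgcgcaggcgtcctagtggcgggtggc
The Ezh2 promoter holds 1 such word, 3 bases after the start site, and the Suz12 promoter holds 1, 219 bases before it. Neither word overlaps another motif searched. In the windows of Eed and Ezh1 none of the 3 words occurs, which says only that these letters are not there. Of all 27025 genes with a listed promoter, 2.12% hold 1 of the words. Of the 75 enzymes with a listed promoter, 3 of 22 higher genes hold one (Ezh2, Suz12 and Prdm4), 2 of 18 lower genes do (Sirt4 and Suv420h2), and 0 of 26 genes not past the threshold do. The word TGACGTCA of cyclic AMP response elements occurred for 2 of the 75 enzymes (2.03% of all genes), and the AP-1 words TGAGTCA and TGACTCA for 6 (5.95% of all genes). A match is a description of the letters and not a binding site.

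**Figure D3:**
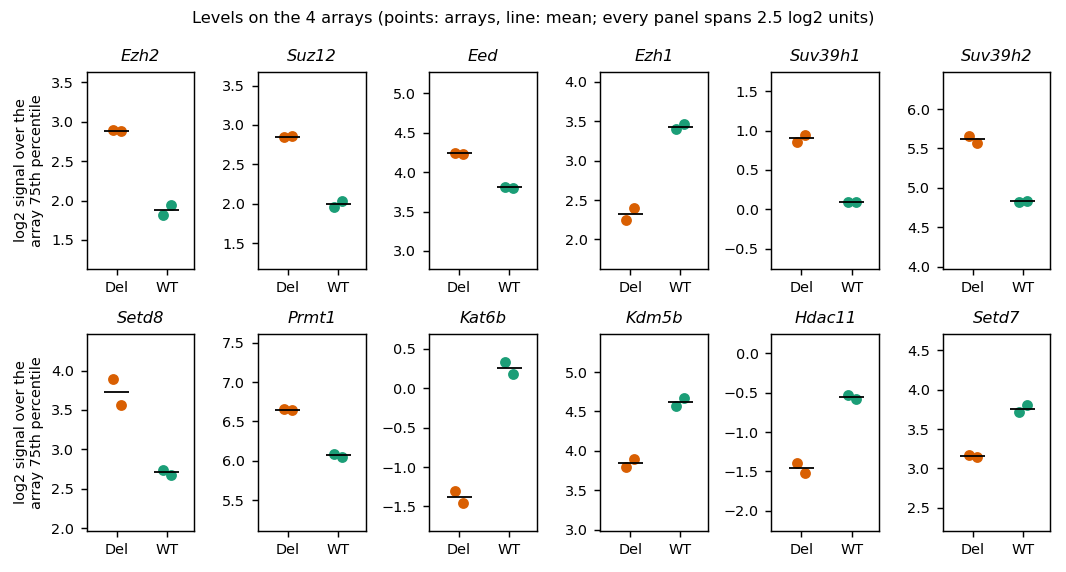
Level on each array (log2 signal over the array's 75th percentile) of 12 genes, with deletion-mutant arrays (Del, orange) left of wild-type arrays (WT, green), 1 point per array and a line at the mean of 2. Every panel spans the same range of log2 units. The 12 genes were picked from those past the threshold, and in all of them the arrays of the groups do not overlap. The same held for 81.7% of all features.

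Of the SUV39 and EHMT writers of H3K9 methylation, the mark of heterochromatin, 3 of 4 rose, beside 34.6% of all features. The genes were grouped by mark, here and for the other marks, after their values were seen. Counts by mark beside the share of all features are therefore no test. Outside these families Setdb2, a further H3K9 methyltransferase, was higher (1.09 ± 0.076, log2), and Setdb1 did not pass (0.18, log2). Suv39h1, which trimethylates H3K9 at centromeric repeats, had 0.86 and 0.94 on the deletion-mutant arrays, against 0.09 and 0.09 on the wild-type arrays (1.75-fold higher, log2 fold change 0.81 ± 0.061, adjusted p = 0.00126). Its close relative Suv39h2 had 5.66 and 5.57, against 4.82 and 4.83 in wild-type cells (1.73-fold higher, 0.79 ± 0.063, adjusted p = 0.0014). Both were clear of the spread between the arrays of a group. Ehmt1, the partner of G9a in dimethylating H3K9 in euchromatin, was 1.35-fold higher (0.44 ± 0.083), and Ehmt2, which is G9a, did not pass at 0.17 (log2, adjusted p = 0.133). Suv39h1 and Suv39h2 kept the call under all 16 alternatives. Ehmt1 did not pass under 5 of them, including quantile normalization and detected-probe scaling.

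Of the KDM3 and KDM4 demethylases of H3K9, 4 of 5 tested were lower, beside 24.2% of all features. Kdm4c was 1.36-fold lower (-0.44 ± 0.094, log2), Kdm4b 1.32-fold (-0.40 ± 0.056), Kdm4a 1.21-fold (-0.27 ± 0.067) and Kdm3b 1.20-fold (-0.27 ± 0.078). Kdm3a was at 0.009 and Kdm4d did not pass the filter on background. Demethylases of H3K9 with other names, which belong to the list of further erasers, went both ways. Jhdm1d (0.76 ± 0.184), Phf2 (0.48 ± 0.084) and Jmjd1c (0.23 ± 0.070) were higher, Hr was lower (-1.18 ± 0.096, well above background on 3 of 4 arrays) and Phf8 did not pass (-0.15). The falls of the KDM3 and KDM4 genes are smaller than the rises of Suv39h1 and Suv39h2, and they lean on the scaling: 2 of the 5 were lower under median scaling, 2 under E1A spike-in scaling, 3 under quantile normalization and 4 under detected-probe scaling. The call of Kdm4b held under 15 of the 16 alternatives, that of Kdm4c under 13, and those of Kdm4a and Kdm3b under 6 each. Kdm4a lost its call when any of the 4 arrays was left out. Kdm4c and Kdm3b lost theirs without wild-type replicate 1 and also without wild-type replicate 2. A second probe of Kdm3b pointed up at 0.17 (log2, adjusted p = 0.147) and the called probe itself missed the threshold when every probe was tested by itself (adjusted p = 0.0517).

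The writers and erasers of H3K4 methylation, which marks promoters and enhancers of active genes, included both lower and higher genes. Of 6 writers of the MLL and SETD families 4 were lower and 1 higher, beside 24.2% and 34.6% of all features. Of 5 tested KDM1 and KDM5 erasers 2 were lower, 1 was higher and 2 did not pass. Setd7, which adds a single methyl group to H3K4 and to several proteins that are not histones, had 3.17 and 3.15 in deletion-mutant cells, against 3.72 and 3.80 in wild-type cells (1.52-fold lower, -0.60 ± 0.062, adjusted p = 0.00243). Mll3, now named Kmt2c, which works at enhancers, was 1.41-fold lower (-0.50 ± 0.057). Setd1b was 1.27-fold lower, and its paralogue Setd1a, like it a subunit of the SET1 complexes of promoters, was 1.27-fold higher. Setd1a lost its call under quantile normalization and detected-probe scaling, and Setd1b under median scaling. Over the 16 alternatives, with single arrays left out among them, the call of Setd1a held under 10 and that of Setd1b under 12. Mll1, now Kmt2a, was -3.63 and -3.57 on the deletion-mutant arrays, not well above background, and -3.08 and -3.19 on the wild-type arrays. It was at least 1.21-fold lower there (adjusted p = 0.00665), and this call was lost with normexp background correction, with an intensity trend and without the background filter. Mll2, now Kmt2d, did not pass (0.024, log2).

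Among the H3K4 demethylases Kdm5b and Kdm5a, which remove the trimethyl mark, were lower. Kdm5b had 3.80 and 3.90 on the deletion-mutant arrays, against 4.57 and 4.68 on the wild-type arrays, a clear gap (1.71-fold lower, -0.77 ± 0.074, adjusted p = 0.00204). All 4 of its probes were lower, between -0.77 and -1.24 (log2). Kdm5a had 1.06 and 1.22 in deletion-mutant cells, against 1.64 and 1.80 in wild-type cells (1.49-fold lower, -0.58 ± 0.095, adjusted p = 0.00841). Kdm5c on the X chromosome did not pass (0.053), and its Y-linked counterpart Kdm5d was not well above background on any array. Kdm1a (LSD1), which removes mono- and dimethyl marks, was 1.21-fold higher (0.28 ± 0.067), a call that 7 of the 16 alternatives did not share, while Kdm1b did not pass (0.018).

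**Figure D4:**
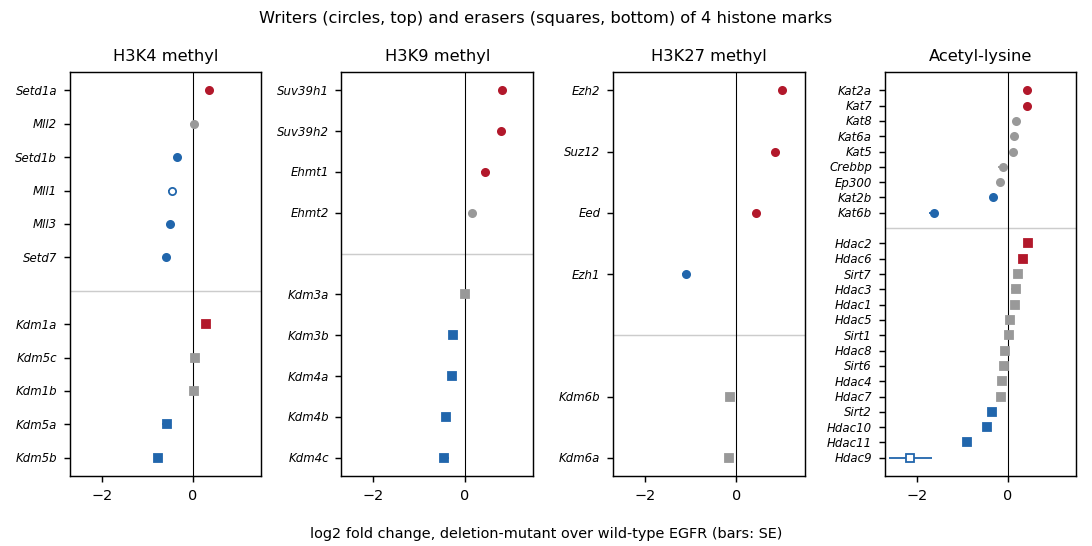
Log2 fold change (deletion-mutant over wild-type EGFR, bars: SE) of writers (circles, upper block) and erasers (squares, lower block) of H3K4, H3K9 and H3K27 methylation and of lysine acetylation, red where higher and blue where lower at an adjusted p of 0.05, grey otherwise, open where at background in deletion-mutant cells. The SUV39 and EHMT writers of H3K9 lie to the right of 0 and the KDM3 and KDM4 erasers at or left of 0, whereas both the writers and the erasers of H3K4 include genes on either side of 0. The grouping by mark was made after the values were seen.

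H4K20 is methylated in steps by separate enzymes. Setd8, now Kmt5a, which adds the first methyl group and acts around mitosis, had 3.89 and 3.56 on the deletion-mutant arrays, against 2.73 and 2.68 on the wild-type arrays. The deletion-mutant arrays differed by more from each other than the wild-type arrays did, yet both lay well above them, and Setd8 rose 2.03-fold (1.02 ± 0.129, adjusted p = 0.0041). Its second probe rose too, by 0.77 (log2). Suv420h2, now Kmt5c, which adds the later groups in heterochromatin, was 1.22-fold lower (-0.29 ± 0.059), a call that 8 of 16 alternatives did not share. The probes of its paralogue Suv420h1, now Kmt5b, disagreed. The brightest, at chromosome 19, 3808776 to 3808835 (mm9), had a fold change of 0.22 ± 0.099 (log2) and did not pass. The other 3, between 3806255 and 3816362, were lower by -0.53, -0.78 and -0.65 (log2), and each of these passed when every probe was tested by itself. So the gene counts as not past the threshold by the brightest probe and as lower by the others.

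For the writers of H3K36 and H3K79, marks laid down along transcribed genes, Nsd1 was 1.39-fold lower (-0.48 ± 0.109), with its second probe also lower (-0.74), and Dot1l, the only known H3K79 methyltransferase, was 1.30-fold higher (0.38 ± 0.073). The call of Nsd1 held under 11 of the 16 alternatives and that of Dot1l under 12. Nsd1 did not pass under median scaling, nor without wild-type replicate 1 or without wild-type replicate 2. Dot1l did not pass under quantile normalization or detected-probe scaling, nor without wild-type replicate 2. Setd2, which trimethylates H3K36, did not pass at -0.037 (log2). Its probe was printed 10 times on each array, with an SD between spots of 0.092 and 0.060 on the deletion-mutant arrays and of 0.083 and 0.071 on the wild-type arrays. The H3K36 demethylases Kdm2a (-0.089) and Kdm2b (0.12) did not pass. Of the remaining SETD genes, Setd6, a methyltransferase of the NF-kB subunit RelA, had 2.47 and 2.55 in deletion-mutant cells, against 1.73 and 1.93 in wild-type cells (1.60-fold higher, adjusted p = 0.00469). Setd4 had 1.32 and 1.39 in deletion-mutant cells, against 2.02 and 1.89 in wild-type cells (1.51-fold lower, adjusted p = 0.00416). Setd3, which methylates actin on a histidine, was 1.36-fold higher by its brightest probe, and its dim second probe was at -0.15 (log2) and did not pass. Setd5 did not pass (-0.15).

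Protein arginine methyltransferases act on histones and on many RNA-binding proteins. Of 7 tested, 4 rose and 2 fell, beside 34.6% and 24.2% of all features. Prmt1, which makes most of the asymmetric dimethylarginine of the cell, had 6.66 and 6.65 on the deletion-mutant arrays, against 6.09 and 6.05 on the wild-type arrays. The arrays of each group nearly coincided, and Prmt1 rose 1.49-fold (0.58 ± 0.056, adjusted p = 0.00207). Prmt3, a cytosolic enzyme that acts on a ribosomal protein, had 1.71 and 1.88 in deletion-mutant cells, against 1.21 and 1.30 in wild-type cells (1.46-fold higher, adjusted p = 0.00777). Prmt5, the main symmetric dimethyltransferase, rose 1.42-fold and Prmt7, which adds a single methyl group, 1.27-fold. The call of Prmt5 held under all 16 alternatives, that of Prmt7 under 10. Prmt2 had 3.11 and 3.12 in deletion-mutant cells, against 3.60 and 3.71 in wild-type cells (1.46-fold lower, adjusted p = 0.00363), and Prmt10, now Prmt9, was 1.27-fold lower. Prmt6 did not pass by its brightest probe (0.31, log2, adjusted p = 0.0613), but its other probes were higher at 0.71 and 0.81 and passed when tested by themselves. Prmt8, an enzyme of neurons, was not well above background on any array. Under the other scalings 3 to 5 of the 7 were higher and 1 or 2 lower.

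Among the 9 KAT-family, Crebbp and Ep300 writers of acetyl groups 2 were higher, 2 lower and 5 did not pass. Across the array 34.6% of features were higher and 24.2% lower. Kat6b, which acetylates histone H3 in a complex with Brpf proteins, showed the largest measured fall of all tested enzymes. It had -1.30 and -1.45 on the deletion-mutant arrays, against 0.33 and 0.18 on the wild-type arrays, and was 3.10-fold lower (-1.63 ± 0.092, adjusted p = 0.000725). A second probe at chromosome 14, 22490036 to 22490095 (mm9) had a smaller fall of -0.86 ± 0.067 (log2), with means of -1.46 in deletion-mutant and -0.60 in wild-type cells. The size of the fall therefore depends on the probe and its direction does not. Its paralogue Kat6a did not pass (0.13). Kat7 (HBO1), which acetylates histones at replication origins, and Kat2a (GCN5), of the SAGA coactivator complex, were both 1.34-fold higher, and Kat2b (PCAF), the paralogue of Kat2a, was 1.26-fold lower. The call of Kat7 held under all 16 alternatives, that of Kat2b under 11. The broad coactivators Crebbp (-0.11) and Ep300 (-0.17) did not pass, and neither did Kat5 (0.11) or Kat8 (0.17, adjusted p = 0.0561).

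Of 11 HDAC genes 2 were higher and 3 lower, beside 34.6% and 24.2% of all features, and 6 did not pass. Hdac11, the only member of its class, had -1.39 and -1.52 on the deletion-mutant arrays, against -0.53 and -0.57 on the wild-type arrays (1.87-fold lower, -0.91 ± 0.073, adjusted p = 0.00143). Hdac10, a polyamine deacetylase of the cytosol, was 1.38-fold lower (-0.46 ± 0.057) with both of its probes. Hdac9, a class IIa deacetylase best known from muscle, had -3.96 and -5.28 on the deletion-mutant arrays, not well above background, and -2.62 and -2.34 on the wild-type arrays. It was at least 1.90-fold lower (adjusted p = 0.0196), and the call was lost without wild-type replicate 1 (adjusted p = 0.0785), without wild-type replicate 2 (0.099) and without the background filter (0.0858). The 3 lower genes are thus outside class I, the nuclear deacetylases of the corepressor complexes.

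Within class I, Hdac2 rose 1.36-fold (0.44 ± 0.064), with -0.42 and -0.52 in deletion-mutant cells and -0.91 and -0.92 in wild-type cells. Its probe was printed 10 times on each array, with an SD between spots of 0.088 to 0.16. Hdac1 (0.15), Hdac3 (0.17) and Hdac8 (-0.063) did not pass, although 1 dimmer probe of Hdac1 did when tested by itself (0.29, adjusted p = 0.0273). Hdac6, which deacetylates tubulin, was 1.26-fold higher, and this call was lost under 6 of the 16 alternatives. The other class IIa genes Hdac4 (-0.12), Hdac5 (0.046) and Hdac7 (-0.15) did not pass.

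Sirtuins remove acyl groups with NAD+ as a cofactor. None of 7 was higher and 3 were lower, where 34.6% and 24.2% of all features were. The lower ones were Sirt2, a cytosolic tubulin deacetylase (1.28-fold), and the mitochondrial Sirt4 (1.26-fold) and Sirt5, a desuccinylase (1.24-fold). All 3 lost the call under median scaling, where 0 sirtuins were lower and 1 was higher. Over the 16 alternatives, with single arrays left out among them, the call of Sirt2 held under 10, that of Sirt4 under 12 and that of Sirt5 under 9. The nuclear enzymes Sirt1 (0.018), Sirt6 (-0.089) and Sirt7 (0.21) and the mitochondrial Sirt3 (0.003) did not pass. Kdm8, a JmjC enzyme, was 1.15-fold higher, the smallest called change, and lost the call under 9 of 16 alternatives.

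PRDM proteins carry a domain related to the SET domain of methyltransferases, but only some of them have the activity, and most act as DNA-binding factors of particular lineages. Of 14 genes 6 were tested, at a median level of percentile 30.7 of all features. Prdm4 had 1.53 and 1.49 on the deletion-mutant arrays, against 1.03 and 0.92 on the wild-type arrays, and was 1.45-fold higher (0.54 ± 0.067, adjusted p = 0.00399). Prdm1 (-0.57), a repressor that drives plasma cell differentiation, Prdm2 (0.008), Prdm9 (0.34), the meiotic H3K4 methyltransferase, and Prdm11 (-0.072) did not pass. The filter on background left out 8 genes of the family.

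Of 31 enzymes with several tested probes, 25 had all of them with the same sign, and 0 had called probes in both directions. In 11 every probe passed in 1 direction: higher for Hdac6, Kat2a, Prmt1, Setd8 and Suv39h2, and lower for Ezh1, Hdac10, Kat6b, Kdm5b, Nsd1 and Setd1b. These counts of probe agreement were not made for the whole array, so whether they are usual for it cannot be told. Fold sizes still differed between probes. Suv39h2 had 0.79 at its brightest probe and 1.64 at a dim one (log2).

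**Figure D5:**
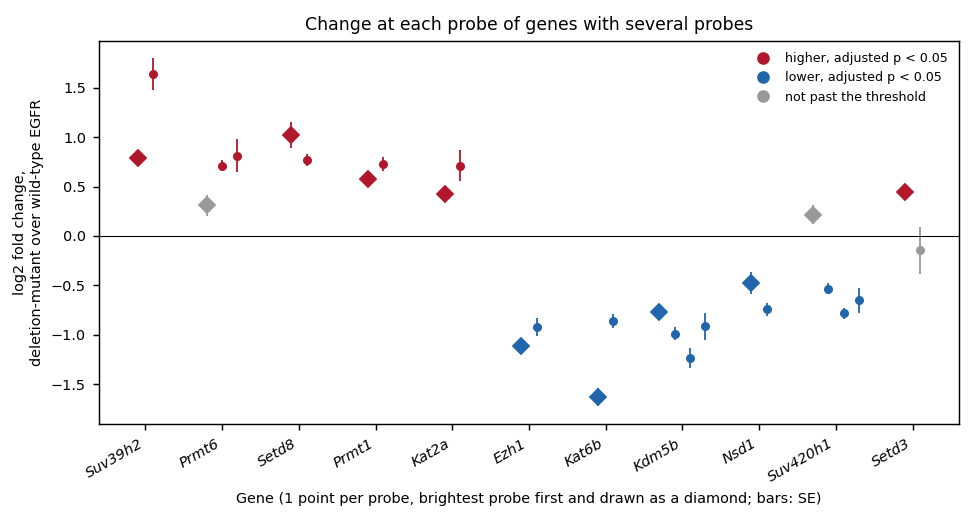
Log2 fold change (deletion-mutant over wild-type EGFR, bars: SE) at each probe of 11 genes with several tested probes, the brightest probe first and drawn as a diamond, red where higher and blue where lower at an adjusted p of 0.05 with every probe as a feature. Probes of Kdm5b and Ezh1 all lie below 0, while the brightest probe of Suv420h1 lies above 0 and its other 3 probes below.

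Among proteins that work with these enzymes rises outnumbered falls, as they did among all features (34.6% higher and 24.2% lower). Of 41 tested writer partners and further writers 23 were higher and 5 lower, with a median of 0.26 (log2). The largest rises after Phf19 were those of Setdb2, an H3K9 methyltransferase (2.13-fold), and Hat1, which acetylates new histone H4 before it is assembled (2.09-fold). Besides Phf1, Brd1 (1.33-fold) and Msl1 (1.24-fold), scaffolds of acetyltransferase complexes, were lower. Of 32 tested corepressors and further erasers 21 were higher and 4 lower, with a median of 0.36. Rcor2, a partner of Kdm1a, rose 2.19-fold, Sap30 of the SIN3 complex 1.90-fold and the hydroxylase Jmjd6 1.82-fold, while Phf21a (1.36-fold), Mier1 (1.18-fold) and Tbl1x (1.17-fold) were lower. The largest fall in this list was that of Hr. Under the other scalings 13 to 29 writer partners were higher and 1 to 10 lower, and 12 to 25 corepressors were higher and 2 to 7 lower.

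Readers, which bind the marks, were higher in 12 of 21 cases and lower in 3. Cdyl2 rose 2.70-fold, Mphosph8 of the HUSH silencing complex 1.66-fold and Ing1 1.66-fold, whereas L3mbtl3 was 2.32-fold lower, Ing4 1.48-fold and Cbx6 1.22-fold. The list of histone ubiquitin genes held enzymes that add or remove ubiquitin and their partners. Of its 20 genes 6 were higher and 1 lower, beside 34.6% and 24.2% of all features. These were led by Rnf2, the catalytic subunit of Polycomb repressive complex 1 (1.69-fold higher), Pcgf3 (1.60-fold) and Ube2a (1.60-fold), and Ube2b, the paralogue of Ube2a, was 1.24-fold lower. Under detected-probe scaling the split was 6 and 5 for readers and 5 and 5 for the ubiquitin genes.

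Genes that supply the cofactors were split, with 5 of 12 higher and 5 lower, beside 34.6% and 24.2% of all features. Ahcy, which clears the product that inhibits methyltransferases, rose 2.32-fold, Nampt, the rate-limiting enzyme of NAD+ salvage, 1.84-fold and Acly, which makes acetyl-CoA from citrate, 1.52-fold. Nnmt, which spends methyl groups on nicotinamide, had -2.19 and -2.16 on the deletion-mutant arrays, against 1.02 and 0.94 on the wild-type arrays, and was 8.92-fold lower (-3.16 ± 0.062). Nmnat3 was 1.98-fold lower and Idh1, which makes the cofactor of the JmjC demethylases, 1.69-fold.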

How the data were processed

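The data were 1-colour Agilent arrays of Cy3-labelled cRNA. Feature Extraction 10.10.1.1 read them, per the file headers (protocol GE1_1010_Sep10), with probe coordinates on mm9. The deposited text files give each spot's processed signal as intensity, background-subtracted and detrended within the array, besides its raw mean and local background intensity. They also hold flags of 0 or 1. The authors' deposited log2 values differ from log2 of the processed signal by a constant for each array (tolerance 0.01, met by 100% of probes), with a median of 4.44 on every array. What the authors tested with them is not stated here.

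Spots marked as uneven or as population outliers (116 to 142 per array) and control spots were left out, repeated spots were averaged on the log2 scale, and each array's 75th percentile was subtracted. Of 55681 probes 25162 were kept, those well above background (share of marked spots at least 0.5) on both arrays of a group. A gene was represented by its brightest kept probe, giving 18093 features. They were fitted with limma 3.58.1 (lmFit, eBayes) in R 4.3.3 (files read with data.table, version 1.17.8), with Benjamini-Hochberg adjustment across the 18093 features. Residual degrees of freedom were 2 and the prior degrees of freedom 2.18. For genes at background in 1 group the bound compares the bright group's mean with a floor in the dim group. On each array that floor is the lowest signal well above background or the probe's own signal, whichever is higher, and the 2 floors are averaged. All 91 gene names matched RefSeq, 8 of them under another symbol now. Where probes lie within transcripts was not analysed here. Values of 1 gene are not reported here.

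The members and lists were chosen with earlier results of these data known, and the grouping by histone mark was made after the values were seen. Values on every array are given for the 8 largest rises and falls among members well above background on all arrays, for up to 3 members per direction at background in 1 group, and for PRC2, with a few more chosen after their values were seen. The promoter words were searched on both strands. Alternatives were normexp (offset 50), 5 scalings or normalizations (E1A spike-in scaling, on 4 probes, chosen after seeing the data), both background filters, robust variances with an intensity trend, averaging the probes of a gene, testing each probe, a replicate block and omission of single arrays. Plots used matplotlib 3.10.9 and pandas 2.3.3 (Python 3.11.15).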

Additional observations from a re-analysis of the deposited data

How the results depend on the processing

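Of 46 called enzymes 20 kept the call under all 16 alternatives, 11 of them higher and 9 lower. Under the 5 scalings the log2 median over all features shifted by -0.19 to 0.18, and no called enzyme turned sign. Except under quantile normalization this outcome was fixed in advance. The other scalings move every gene by a constant of at most 0.19 in size, and the smallest called change was 0.21 (Kdm8). Of 19 named members 15 kept the call under every alternative. The exceptions were Hdac9, Kdm5a, Mll1 and Prmt3.

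Under median scaling and with the authors' log2 values alike, 34 enzymes were higher and 14 lower, 7 writers were lower, 9 erasers were higher and 7 lower, and 2 PRDM genes changed, both higher. The medians were 0.349 and 0.35 for writers and 0.0904 and 0.0913 for erasers. Of all features, median scaling called 48.1% higher and 17.4% lower, so the whole array moved as well. With the 75th percentile over detected probes 14 enzymes were higher and 37 lower, 1 eraser was higher and 19 lower, and 3 PRDM genes changed, 2 of them lower, with medians of -0.0247 for writers and -0.283 for erasers. Quantile normalization left 2 erasers higher and gave medians of -0.0235 and -0.203, and E1A spike-in scaling gave 0.251 and -0.00778. Calls over all features shifted with these scalings too. Detected-probe scaling put 23.6% of them higher and 37.2% lower. Quantile normalization gave 29.2% and 28.0%, and E1A spike-in scaling 39.9% and 20.7%. The writers' median was 0.121 with normexp correction and the erasers' -0.121 with the mean of probes.

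Without a background filter 34816 features were tested and 18.6% were called. Then 20 enzymes were called, 11 higher and 9 lower, among them 16 writers (10 and 6) and 3 erasers (0 higher and 3 lower). With every probe as a feature 44 writer probes were called, 19 of them lower. An intensity trend called 2 PRDM genes, 1 of them lower.

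The replicate number does not pair the samples by the labels, and deviations of equally numbered arrays correlated at 0.0472. With the replicate block 2 erasers were higher, and 43 of the 46 called enzymes kept the call.

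Leaving out 1 array at a time gave 28 to 42 changed enzymes (14 to 22 higher, 14 to 20 lower). It gave 20 to 27 changed writers (12 to 17 higher, 8 to 11 lower), 6 to 13 changed erasers (1 to 3 higher, 5 to 10 lower) and 1 to 2 changed PRDM genes (1 to 2 higher, 0 to 1 lower). The lowest counts of all enzymes came without a wild-type array, where fewer features of the whole array were called too. The writers' median lay between 0.108 and 0.172 and the erasers' between -0.131 and -0.0737. Such a fit has a single array in 1 group, whose spread is assumed to equal that of the other. The number of arrays limits the precision, and the causes of these shifts were not tested.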
